A study of Saccharomyces cerevisiae with 83 samples.

Results

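RNA was compared between 2 yeast strains that carry the same plasmid-borne, FLAG-tagged Upf1 and differ in their labelled NMD2 genotype, NMD2 being the gene of Upf2. The comparison takes 6 of the 83 libraries of the series, 3 of the upf2Δ-labelled strain against 3 of the Upf1-FLAG strain. The former is HFY467, in which NMD2 is disrupted with HIS3 (nmd2::HIS3) and UPF1 with URA3 (upf1::URA3), and the latter is HFY871, in which UPF1 is disrupted with HIS3 (upf1::HIS3); both carry pRS425-UPF1-FLAG. Levels are also given for the wild type with the empty plasmid pRS425 (WT, strain HFY114) and for HFY871 with pRS425-DE572AA-FLAG, whose plasmid carries the DE572AA form of Upf1. All 4 strains were of the W303 background and were grown in YAPD after a selective preculture. Every culture received 100 µg/ml cycloheximide, which halts elongating ribosomes, and ribosomal RNA was removed with QIAseq FastSelect. Tagged Upf1 came from a plasmid in every strain but WT, each genotype was represented by 1 strain, and the compared strains differ in their marker genes as well as in NMD2. Nothing in the labels places the 3 samples of a group in separate cultures, so p-values measure the spread between these samples.

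Nonsense-mediated mRNA decay (NMD) degrades mRNAs on which translation ends too early, and it needs the proteins Upf1, Upf2 and Upf3. Upf2 bridges Upf1 and Upf3 and stimulates the helicase activity of Upf1. In yeast, transcripts with premature stop codons, retained introns, upstream reading frames or long 3′ untranslated regions are known substrates, and they accumulate when any of the 3 proteins is lost.

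The 6 libraries held between 92571804 and 134330197 expected counts, the estimated counts per transcript that the authors deposited. Levels are given as CPM, a transcript's expected counts scaled to the same total in every library (counts per 10⁶). Within a group, the log2 levels of any pair of libraries correlated at 0.991 or above (Pearson's r across transcripts, which are not independent replicates). Upf1-FLAG replicate 1 stood apart in phosphate-responsive transcripts. PHO84, the high-affinity phosphate transporter, measured 436 CPM there, against 25.7 and 32.2 CPM in the other Upf1-FLAG replicates and 68.2, 149 and 222 CPM in the upf2Δ-labelled replicates. None of the 15 members of a phosphate list was called in the main comparison, and 4 were called higher once that library was left out.

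Mature RNA counted for the targeted gene was not lost in the upf2Δ-labelled strain, while its unspliced entry was. NMD2 mRNA measured 237, 206 and 194 CPM in the Upf1-FLAG libraries and 1164, 1194 and 1164 CPM in the upf2Δ-labelled libraries. The groups did not overlap, and NMD2 was higher in the strain labelled as disrupted for it (log2 fold change 2.38 ± 0.07, SE; adjusted p = 5.1e-11, edgeR). The unspliced entry of NMD2, which contains its intron, measured 5.30, 8.79 and 4.97 CPM in Upf1-FLAG and 0 in all 3 upf2Δ-labelled libraries, at least 259-fold lower against a floor of 3 counts per library. Footprints could not be set beside these values, because NMD2, UPF1 (symbol NAM7) and UPF3 are listed at 0 in the deposited footprint tables for every library used here. Which part of NMD2 the RNA counts cover was not examined, and the strain is called by its label, upf2Δ-labelled, throughout.

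The genes on both sides of NMD2 on chromosome VIII also differed. PTC7, a mitochondrial type 2C protein phosphatase (chrVIII:251101-252225, R64), measured 23.7, 14 and 16.7 CPM in Upf1-FLAG and 7.57, 6.34 and 8.13 CPM in the upf2Δ-labelled strain (log2 -1.39 ± 0.18, adjusted p = 0.00012). On the other side, YHR078W (chrVIII:256360-258018), an uncharacterized gene added here after its values were seen, measured 72.2, 61.3 and 55.5 CPM against 201, 203 and 214 CPM (log2 1.62 ± 0.07, adjusted p = 2.4e-09). Total 80S footprints, the fragments protected by all 80S ribosomes of a lysate, went the opposite way for YHR078W. They fell from 13.6 ± 1.61 to 0.173 ± 0.299 CPM (SD, n = 3), a log2 change of -6.01 ± 0.77 (adjusted p = 2e-05, edgeR).

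**Figure D1:**
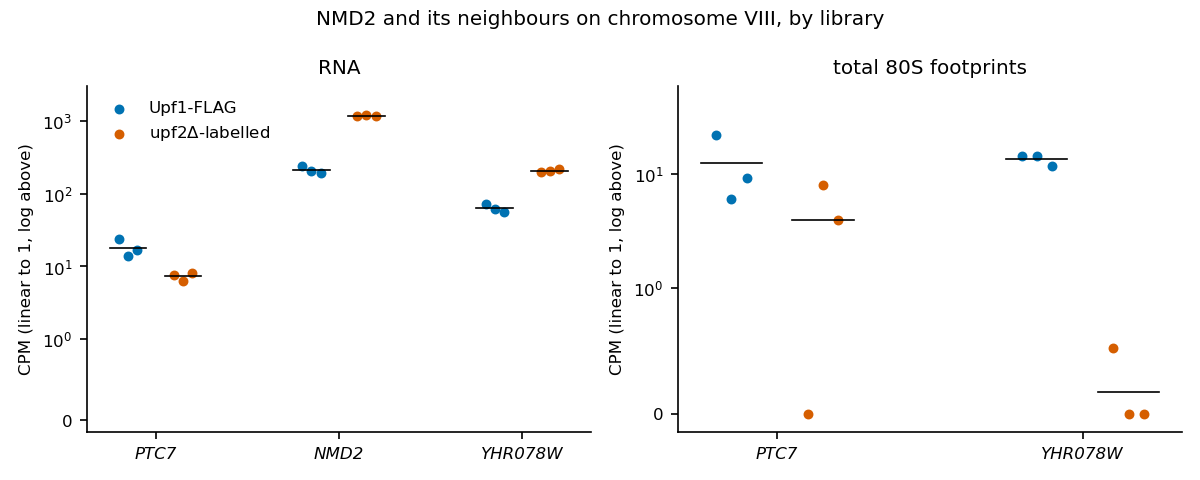
Level in CPM, linear up to 1 and logarithmic above, of NMD2 and its 2 neighbours in each library; points are libraries and bars are means of 3. RNA of NMD2 and YHR078W was higher in the upf2Δ-labelled libraries and RNA of PTC7 lower, while footprints of YHR078W were near 0 there; NMD2 is not shown for footprints because it is listed at 0 in all libraries used.

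The other NMD factors and the marker genes differed less. UPF1 mRNA, whose gene is disrupted in the genome and carried on the plasmid, was at 23468 ± 480.2 CPM in Upf1-FLAG and 13034 ± 1073 CPM in the upf2Δ-labelled strain (log2 -0.94 ± 0.09, adjusted p = 1.2e-05), against 383 ± 10.7 CPM in WT and 12522 ± 1529 CPM in DE572AA-FLAG. EBS1, a factor that acts in NMD and translation, rose (log2 0.29 ± 0.04), as did NMD4, a Upf1-binding protein (log2 0.43 ± 0.10). UPF3 did not pass the test (log2 -0.20 ± 0.09, adjusted p = 0.11). Of the marker genes, HIS3 was higher (log2 0.57 ± 0.12) and LEU2, the marker of the plasmid, lower (log2 -0.63 ± 0.10), and URA3 was not called (log2 -0.08 ± 0.13, adjusted p = 0.69). MRM1, a mitochondrial rRNA methyltransferase encoded beside HIS3, rose in RNA (log2 0.36 ± 0.06, adjusted p = 0.001) and in footprints (log2 0.84 ± 0.16, adjusted p = 0.0024); it was picked after its values were seen.

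The 2 strains also differed in mating type by their transcripts, so the genes that depend on mating type were set apart. All 7 a-specific genes were lower in the upf2Δ-labelled strain, from the a-factor gene MFA2 (190.5 ± 25.8 to 0.429 ± 0.0312 CPM, log2 -8.88 ± 0.10) to its exporter STE6 (log2 -2.70 ± 0.05). All 5 alpha-specific genes were higher, from SAG1, the alpha-agglutinin (log2 0.60 ± 0.07), to MF(ALPHA)1, an alpha-factor precursor (0.120 ± 0.0661 to 512 ± 13.8 CPM). SAG1 was the smallest of these changes in RNA, yet its footprints went from 0.926 ± 0.349 to 80.7 ± 13.0 CPM. At the mating-type loci, 3 of 6 tested genes were higher, 2 lower and 1 not called. HMRA1 was at 5.23 ± 1.27 CPM in Upf1-FLAG and 0 in the upf2Δ-labelled strain, at least 213-fold lower. MATALPHA2 rose much less in RNA, by log2 0.52 to 0.58 over the alternatives, but by 6.92 to 7.65 in footprints. MATALPHA1 rose from a level at or under the floor to 16.8 ± 0.881 CPM, at least 639.9-fold higher, and its values are shared with HMLALPHA1, whose sequence the counting could not tell apart. RDT1, a short gene (chrIII:30910-30996) noted after its values were seen, measured 7.06, 9.06 and 6.56 CPM CPM against 0 in all 3. Mating type and NMD2 genotype cannot be told apart in this comparison, and the results below say where the mating-type genes are left out.

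Beyond those genes, rises outnumbered falls and were larger. In the fit over all 12 RNA libraries of the 4 strains, 6739 entries were tested, mating-type genes included, of which 1539 changed at an adjusted p under 0.05 (22.8%), 949 higher (14.1% of those tested) and 590 lower (8.76%). The 3 upf2Δ-labelled libraries lay above all 3 Upf1-FLAG libraries in CPM for 1808 entries (26.8%) and below all 3 for 349 (5.18%). These CPM are scaled to the library total alone, without the scaling factors of the fit. This split is therefore not comparable with that of the calls. Of 6393 mature entries, 897 were higher (14%) and 580 lower (9.07%). Leaving out the mating-type genes, 941 were higher and 580 lower, and 100 of the former but 16 of the latter changed by at least 2-fold. The median log2 change was 0.47 among the higher and -0.24 among the lower. The division between directions depended on the settings. Of all calls 61.7% were higher in the fit as described, 59.5% with DESeq2, 62.4% with RLE in place of TMM factors and 69.9% with mating-type and marker genes kept out of the scaling factors. The share was 73.4% with the entries of a locus summed, 76.5% with entries under a mean of 1 CPM removed and 76.7% with the 2 compared groups alone. Leaving out one library at a time gave 57.9% (without Upf1-FLAG replicate 1) to 76.5% (without upf2Δ-labelled replicate 3).

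The called transcripts differed in level, and the gap between those called higher and those not called depended on the strain. Per length, mature transcripts called higher had a median of 28.2 FPKM in Upf1-FLAG (fragments per kilobase of transcript, scaled for depth, as deposited), against 86.7 FPKM for those called lower and 38.9 FPKM for those not called. In the upf2Δ-labelled strain these medians were 41.9, 77.6 and 41.0 FPKM, so the higher and the not called were then alike. The 95 mature transcripts that rose by at least 2-fold had a median of 3.50 FPKM in Upf1-FLAG and 10.9 FPKM in the upf2Δ-labelled strain. The 79 of them with a reference gene had a median coding length of 678 nt, against 1327.5 nt for all called higher, 1449 nt for those called lower and 1146 nt for those not called.

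Leaving out NMD2, the other NMD factors, the markers and the mating-type genes, the largest rises were ranked among symbol-bearing mature transcripts of at least 10 CPM in the higher group. TDA8, a gene of unknown function, led them at 3.49, 2.39 and 3.2 CPM in Upf1-FLAG and 11.4, 11.3 and 8.34 CPM in the upf2Δ-labelled strain (log2 1.68 ± 0.20, adjusted p = 5.4e-05). JEN1, the lactate and pyruvate transporter, measured 5.28, 2.48 and 3.81 CPM against 10.3, 10.5 and 13.7 CPM (log2 1.49 ± 0.22, adjusted p = 0.00036). In neither gene did the groups overlap, as the naming rule requires. AAD15, a putative aryl-alcohol dehydrogenase, rose by log2 1.55 ± 0.21, PUG1, a protoporphyrin and heme transporter, by 1.31 ± 0.15, and JLP1, a sulfonate dioxygenase, by 1.27 ± 0.16. HPA2, a histone acetyltransferase, rose by log2 1.19 ± 0.10, DIT2, an enzyme of the spore wall, by 1.21 ± 0.18, and IRC10, a gene of poorly known function, by 1.10 ± 0.08. BSC5, found in a screen for stop codon bypass, rose from 47.4 ± 2.79 to 107 ± 4.26 CPM (log2 1.08 ± 0.08, adjusted p = 1.6e-06). ATG40, a receptor for autophagy of the endoplasmic reticulum, had the least even values, 45.6, 20.5 and 14.6 CPM against 61.9, 62.9 and 73.3 CPM (log2 1.22 ± 0.33, adjusted p = 0.027), and its call was lost in 5 of 14 alternatives, among them the fit of the 2 groups alone and the fits without Upf1-FLAG replicate 2 or any one upf2Δ-labelled replicate.

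**Figure D2:**
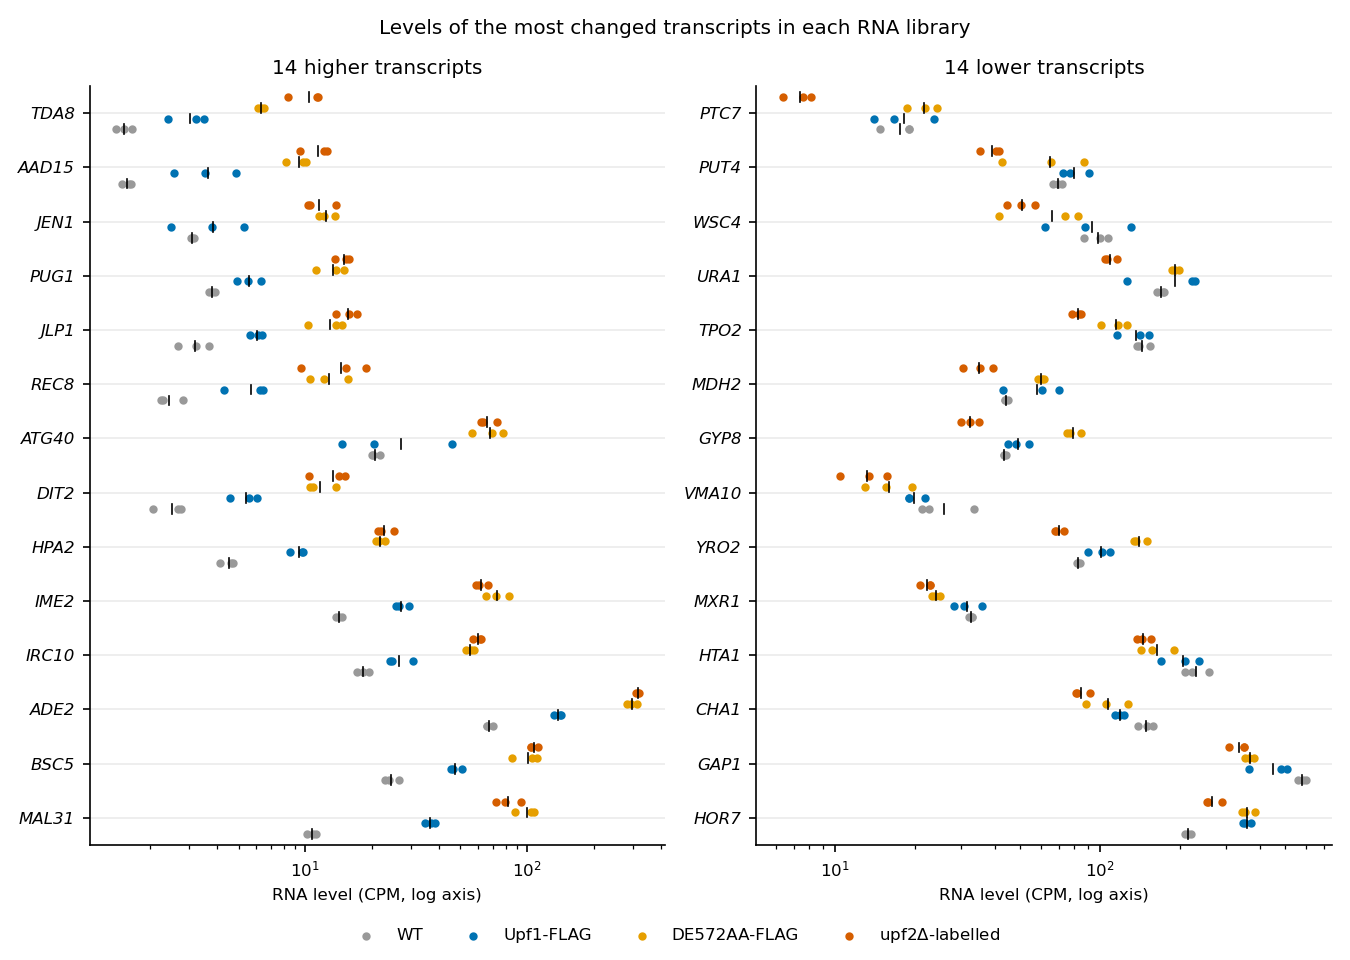
RNA level in CPM on a log axis of the 14 higher and 14 lower transcripts named by rule, 1 point per library and a bar at the mean of 3, for each of the 4 strains. Each of these genes was chosen because the upf2Δ-labelled and Upf1-FLAG points do not overlap; among the higher ones, such as BSC5 and MAL31, the DE572AA-FLAG points lie beside the upf2Δ-labelled ones and the WT points lie lowest.

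The falls ranked in the same way were smaller, with PTC7 beside NMD2 first. PUT4, the proline permease, fell from 90.9, 72.3 and 76.8 CPM to 41.4, 40.4 and 35.1 CPM (log2 -1.13 ± 0.22, adjusted p = 0.0051). TPO2, a polyamine exporter, fell by 0.83 ± 0.11 on the log2 scale, and GAP1, the general amino acid permease, by 0.53 ± 0.12. MDH2, the cytosolic malate dehydrogenase, fell from 57.7 ± 13.5 to 35.0 ± 4.57 CPM (log2 -0.82 ± 0.16, adjusted p = 0.0035). YRO2, a membrane protein, fell by log2 0.62 ± 0.06, MXR1, a methionine sulfoxide reductase, by 0.60 ± 0.09, CHA1, a serine and threonine deaminase, by 0.58 ± 0.12 and HOR7, a small stress-responsive protein, by 0.52 ± 0.07. GYP8, a GTPase-activating protein, fell by log2 0.69 ± 0.07 and lies beside the a-specific gene STE2 on chromosome VI. WSC4, a membrane protein of stress signalling (log2 -0.96 ± 0.29, adjusted p = 0.045), lost its call in 10 of 14 alternatives, and VMA10, a subunit of the vacuolar proton pump (log2 -0.68 ± 0.20, adjusted p = 0.025), in 5. GAP1, MDH2 and URA1 lost theirs in the fit of the 2 groups alone.

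The known substrates of NMD were mostly higher. Of 12 genes described as substrates in yeast, 7 were higher and 0 lower, with a median log2 change of 0.36, against 14.1% of all tested entries called higher and an overall median of -0.02. CPA1, the small subunit of the arginine-specific carbamoyl phosphate synthetase, led them at 270.6 ± 16.8 CPM in Upf1-FLAG and 579.7 ± 16.0 CPM in the upf2Δ-labelled strain (log2 1.01 ± 0.06, adjusted p = 5.4e-08). The genes for telomere maintenance followed, with STN1, of the telomere capping complex, at log2 0.80 ± 0.07, EST2, the telomerase catalytic subunit, at 0.70 ± 0.10 and EST1, a telomerase cofactor, at 0.56 ± 0.05. EST3, another telomerase subunit, was read from its only entry, one marked pre-mRNA, and rose by 0.37 ± 0.09. CTF13, of the kinetochore, and ALR1, the plasma membrane magnesium transporter, both rose by log2 0.36. TEN1 (log2 0.46 ± 0.19, adjusted p = 0.099), REV7 (0.31 ± 0.14, adjusted p = 0.12), PPR1 (0.15 ± 0.05, adjusted p = 0.058), SPT10 (0.11 ± 0.06, adjusted p = 0.18) and UBP7 (-0.05 ± 0.06, adjusted p = 0.55) did not pass.

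The peptide-coding upstream frame of CPA1 is listed as an entry of its own, YOR302W (chrXV:882765-882842), and was examined after its values were seen. Its RNA measured 75.0, 64.6 and 66.3 CPM in Upf1-FLAG and 154, 176 and 135 CPM in the upf2Δ-labelled strain (log2 1.08 ± 0.13, adjusted p = 0.00016), a change close in size to that of CPA1. Its footprints rose from 59.1 ± 11.3 to 219 ± 22.7 CPM (log2 1.88 ± 0.14, adjusted p = 5.3e-10), while those of CPA1 rose by log2 0.79 ± 0.15 (adjusted p = 0.0028).

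W303 strains are known to carry nonsense alleles of ADE2, CAN1 and TRP1, and these genes, grouped after their values were seen, roughly doubled. ADE2, of purine synthesis, measured 140.1, 132 and 141 CPM in Upf1-FLAG and 316, 319 and 308 CPM in the upf2Δ-labelled strain (log2 1.09 ± 0.05, adjusted p = 2e-08). CAN1, the arginine permease, went from 243 ± 6.83 to 535 ± 29.3 CPM (log2 1.05 ± 0.06, adjusted p = 3.7e-08) and TRP1, of tryptophan synthesis, from 17.1 ± 1.43 to 34.9 ± 2.04 CPM (log2 0.93 ± 0.12, adjusted p = 8.6e-05). In the order of levels, WT lay lowest for each, at 67.4 ± 2.49 CPM for ADE2, 166 ± 3.25 CPM for CAN1 and 8.92 ± 0.906 CPM for TRP1. DE572AA-FLAG, at 296 ± 14.1 CPM for ADE2, 529 ± 17.3 CPM for CAN1 and 30.6 ± 3.13 CPM for TRP1, did not differ from the upf2Δ-labelled strain beyond the test (adjusted p = 0.36, 0.73 and 0.47). The alleles themselves were not examined here.

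**Figure D3:**
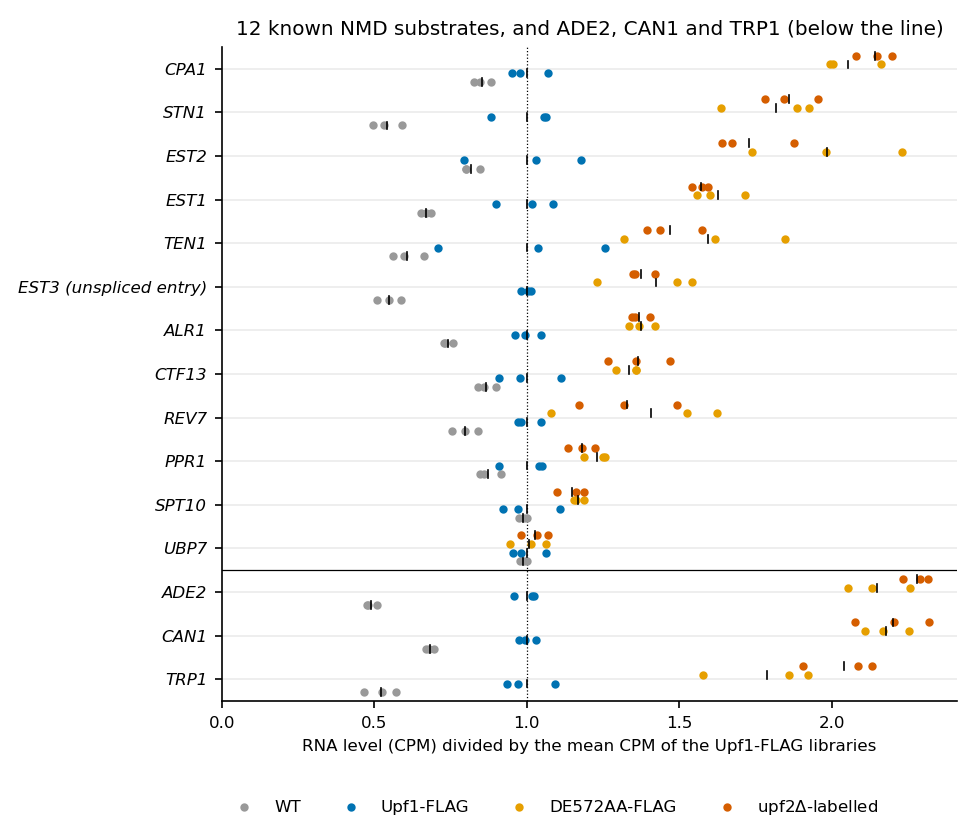
RNA level of the 12 known NMD substrates and, below the line, of ADE2, CAN1 and TRP1, each divided by the mean CPM of the Upf1-FLAG libraries, with 1 point per library and a bar at the mean of 3. The upf2Δ-labelled points of CPA1 lie beside those of TRP1, farthest right among the 12, while those of UBP7 and SPT10 overlap the Upf1-FLAG points.

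Pseudogenes and noncoding RNAs were also called higher and not lower. Among the 20 tested entries that the deposited table lists without an mRNA suffix, 12 were higher (60%) and 0 lower. Over all tested entries, 14.1% were higher and 8.76% lower. These entries and the pseudogenes below overlap, so some calls are counted in both sets. Of 16 tested entries that the reference annotates as pseudogenes, a set also drawn up afterwards, 9 were higher and 0 lower, with a median log2 change of 0.81. SDL1 rose by log2 0.67 ± 0.08 and CCW22 by 0.36 ± 0.10. Of the other 14 tested noncoding entries, 7 were higher and 0 lower. These included RUF5-1 and RUF5-2, whose log2 changes had the same range over the alternatives, so that 1 signal may be counted under both names. Both lost their call in 2 alternatives, and SRG1, also among the 7, lost its call in 6. ICR1 and its relatives are long noncoding RNAs that lie over the promoters or bodies of coding genes, and ICR1 measured 70.9, 72.5 and 63.1 CPM against 133, 120.1 and 135 CPM (log2 0.82 ± 0.06, adjusted p = 1.1e-06). IRT1, over the promoter of the meiotic regulator IME1, rose by log2 0.79 ± 0.13, and RME2, antisense to IME4, by 0.68 ± 0.05. RNA polymerase III transcripts were not called, with the signal recognition particle RNA SCR1 at log2 -0.36 ± 0.39 (adjusted p = 0.56) and the RNase P RNA RPR1 at -0.29 ± 0.30 (adjusted p = 0.53).

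Unspliced entries, here every entry marked pre-mRNA in the deposited counts, took a larger share of the RNA. Among them are the programmed-frameshift genes EST3 and ABP140 and the retrotransposon entries YHR214C-B and YPL060C-A. The share is therefore not one of retained introns alone, and such entries were not set apart. The whole class held 2.74%, 2.68% and 2.68% of the counts in the Upf1-FLAG libraries and 3.35%, 3.48% and 3.46% in the upf2Δ-labelled libraries. The groups did not overlap, and the difference of 0.729 percentage points had p = 0.1 in a two-sided exact permutation test, the smallest p that 3 against 3 samples allow. WT held 2.42% ± 0.0631 and DE572AA-FLAG 3.58% ± 0.0498 (SD, n = 3). Of 326 unspliced entries tested one by one, 40 were higher (12.3%) and 10 lower (3.07%), with a median log2 change of 0.14. The share called higher was thus below the 14.1% of all entries and the share called lower below their 8.76%.

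The 5 largest rises among unspliced entries included SPT14, an enzyme of GPI anchor synthesis, at 11.6, 6.08 and 15.8 CPM against 27.6, 35.4 and 39.0 CPM (log2 1.5 ± 0.34, adjusted p = 0.011), a call lost in the fit of the 2 groups alone. MAY24, of poorly known function, rose by log2 1.18 ± 0.27, YPL060C-A by 1.13 ± 0.21, SAR1, a GTPase of vesicle budding, by 1.08 ± 0.34 and YPR202W, of a subtelomeric repeat, by 1.05 ± 0.16; the call of SAR1 was lost in 4 alternatives. The unspliced entry of NMD2, described above, fell most, and the 3 largest falls after it were TUB3, an alpha-tubulin (log2 -1.16 ± 0.29, lost in 3 alternatives), PTC7 beside NMD2 (log2 -0.98 ± 0.20) and YHR214C-B (log2 -0.95 ± 0.13). YHR214C-B and YPL060C-A lie in retrotransposons with near-identical copies, so these counts and those of YPR202W are uncertain. RPL22B and REC107, 2 genes picked after their values were seen, rose in their unspliced entries both in RNA (log2 0.51 ± 0.07 and 0.70 ± 0.13) and in footprints (log2 1.69 ± 0.39, adjusted p = 0.022, and 1.76 ± 0.30, adjusted p = 0.0015). The footprint call of RPL22B was lost in 5 of 8 alternatives.

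Among metabolic groups, most arginine genes were higher. Like every list named here, these groups were chosen with earlier results of these data known, so their shares are descriptive only. Of 16 tested, 11 were higher (68.8%, against 14.1% of all entries) and 0 lower (median log2 0.44), between 9 and 12 over the alternatives. They included ARG1, argininosuccinate synthetase (81.7 ± 4.59 to 148 ± 7.35 CPM, log2 0.76 ± 0.09, adjusted p = 7.4e-05), and ARG5,6, a bifunctional mitochondrial precursor (log2 0.58 ± 0.07), beside CAN1 and CPA1. Of 7 histidine genes, 3 were higher (42.9%), HIS5 (log2 0.64 ± 0.08), HIS4 (log2 0.39 ± 0.07) and the marker HIS3. Of 15 genes of branched-chain amino acids, 7 were higher (46.7%), among them LEU1 (log2 0.41 ± 0.10), LEU9 (0.29 ± 0.06) and the mitochondrial carrier OAC1 (0.43 ± 0.07), and the plasmid marker LEU2 was lower. Among 16 pyrimidine genes 2 were higher, URA10 (log2 0.76 ± 0.10) and URA6 (0.44 ± 0.06), a share of 12.5% near the background, and 3 were lower. The lower ones included URA1, dihydroorotate dehydrogenase, at 126, 228 and 223 CPM against 106, 105 and 116 CPM (log2 -0.93 ± 0.20, adjusted p = 0.0099), URA4, dihydroorotase (log2 -0.54 ± 0.13), and FUI1, the uridine permease (log2 -0.30); none of the 3 was called in the fit of the 2 groups alone. URA1 showed the same size of fall in footprints (log2 -0.91 ± 0.16, adjusted p = 0.0021).

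The maltose, allantoin and urea, and thiamine lists held larger shares of higher genes than the 14.1% background, while the phosphate, hexose transport and copper lists did not. The lists were chosen with earlier results of these data known, so the excess is a description and not a test. Of 11 maltose genes, 9 were higher and 0 lower (median log2 0.76). The maltose permeases MAL31 (36.6 ± 1.99 to 81.8 ± 11.0 CPM, log2 1.07 ± 0.09) and MAL11 (0.89 ± 0.10) and the maltases MAL32 (1.00 ± 0.15) and MAL12 (0.81 ± 0.22) led them, and reads may be divided between these near-identical copies. The call of MAL12 was lost in 3 of 14 alternatives. Of 14 genes of allantoin and urea use, 7 were higher and 0 lower (4 in the fit of the 2 groups alone), led by DAL7, a malate synthase (139.5 ± 8.58 to 298 ± 8.60 CPM, log2 1.00 ± 0.06), the allantoate permease DAL5 (0.94 ± 0.08), the urea transporter DUR3 (0.79 ± 0.09) and the GATA repressor GZF3 (0.74 ± 0.05). Of 17 thiamine and vitamin B6 genes, 9 were higher and 0 lower (median log2 0.48), among them PET18 (1.05 ± 0.09), the transporter homologues THI72 (0.89 ± 0.09) and THI73 (0.80 ± 0.17), and SNO2 (0.77 ± 0.19).

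Some genes of metal uptake were called. Of 26 iron genes 5 were higher (19.2%, against 14.1% of all entries), including the ferric reductases FRE2 (40.2 ± 4.99 to 84.1 ± 0.837 CPM, log2 0.97 ± 0.09) and FRE3 (0.83 ± 0.09), the siderophore transporter ARN2 (0.69 ± 0.09) and the cell wall mannoprotein FIT1 (0.54 ± 0.15, lost in 4 of 14 alternatives). One of the 26, the vacuolar iron transporter CCC1, was lower (log2 -0.22 ± 0.07, adjusted p = 0.044). Without Upf1-FLAG replicate 3 the higher members numbered 8, and without Upf1-FLAG replicate 1 the lower members numbered 4. Of 16 copper genes 2 were higher (12.5%, below the background), the ATPase PCA1 (log2 0.56 ± 0.06) and the reductase FRE7 (0.87 ± 0.26, adjusted p = 0.044), whose call was lost in 5 of 14 alternatives. Of 5 magnesium genes 2 were higher (40%) and 0 lower. ALR2, the homologue of ALR1, rose by log2 0.79 ± 0.06 (112.9 ± 9.18 to 207.8 ± 3.50 CPM, adjusted p = 9e-07).

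Part of the meiotic genes, which are normally little expressed in growing haploid cells, were higher. Of 30 tested, 9 were higher (30%, against 14.1% of all entries) and 0 lower (median log2 0.46). IME2, the kinase of meiotic entry, measured 29.3, 26.3 and 25.6 CPM against 58.9, 60.9 and 66.4 CPM (log2 1.10 ± 0.08, adjusted p = 8.4e-07). REC8, the meiotic cohesin, rose by log2 1.27 ± 0.23, SPR3, a sporulation septin, by 1.58 ± 0.38 from 0.859 ± 0.164 CPM, and REC104, of meiotic recombination, by 1.02 ± 0.17. Among 28 genes of pheromone response and haploid-specific expression, 4 were higher (14.3%, at the background of 14.1%) and 5 lower (17.9%, against 8.76%), with FIG2, a mating adhesin, at log2 0.61 ± 0.05, the MAP kinase KSS1 at 0.49 ± 0.06, PRM5, a pheromone-regulated membrane protein, at 0.35 ± 0.09 and the endonuclease HO at -0.41 ± 0.06. Over the alternatives 2 (without upf2Δ-labelled replicate 2) to 7 (without Upf1-FLAG replicate 1) were higher and 2 to 5 lower, 2 in the fit of the 2 groups alone and without upf2Δ-labelled replicate 3. These are called with the mating-type difference present, and its part in the result was not tested. Of the subtelomeric families, whose copies share reads, 5 of 18 seripauperins (27.8%) and 5 of 11 COS genes (45.5%) were higher, with 0 lower, such as PAU23 (log2 0.96 ± 0.12) and COS10 (0.54 ± 0.07). In the fit of the 2 groups alone 2 seripauperins and 3 COS genes were higher. Without Upf1-FLAG replicate 2 or upf2Δ-labelled replicate 2 these numbers were also 2 and 3, and 2 seripauperins were higher without the third replicate of either group and 3 without upf2Δ-labelled replicate 1.

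Histone, respiratory and ribosomal lists had members called lower and none higher, by small amounts, and several counts depended on the settings. Of 10 histone genes, 7 were lower and 0 higher (median log2 -0.37), between 5 and 8 over the alternatives, with HTA2 from 273.6 ± 19.5 to 205 ± 11.7 CPM (log2 -0.51 ± 0.10, adjusted p = 0.0024), HTB1 at -0.46 ± 0.07, HHF1 at -0.42 ± 0.07 and HTA1 at -0.59 ± 0.15. Of 37 respiratory chain genes, 16 were lower and 0 higher (median log2 -0.19), between 11 and 16 over the alternatives, with CYC1, cytochrome c, at -0.42 ± 0.06, CYT1, cytochrome c1, at -0.33 ± 0.06, COX6 at -0.35 ± 0.08 and ATP3 at -0.32 ± 0.05. Of 39 genes of ribosome biogenesis, 17 were lower (median log2 -0.16), such as CIC1 and RRP1, each at -0.34, but 6 in the fit of the 2 groups alone, 11 with mating-type and marker genes out of the scaling factors and 5 without Upf1-FLAG replicate 3. Of 138 ribosomal protein genes, 19 were lower (median log2 -0.17), a share of 13.8% against the 8.76% background, but 1 was lower in the fit of the 2 groups alone and 77 without Upf1-FLAG replicate 1. Mitochondrial ribosomal proteins gave 17 lower of 72 (median log2 -0.19), with 9 in the fit of the 2 groups alone.

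**Figure D4:**
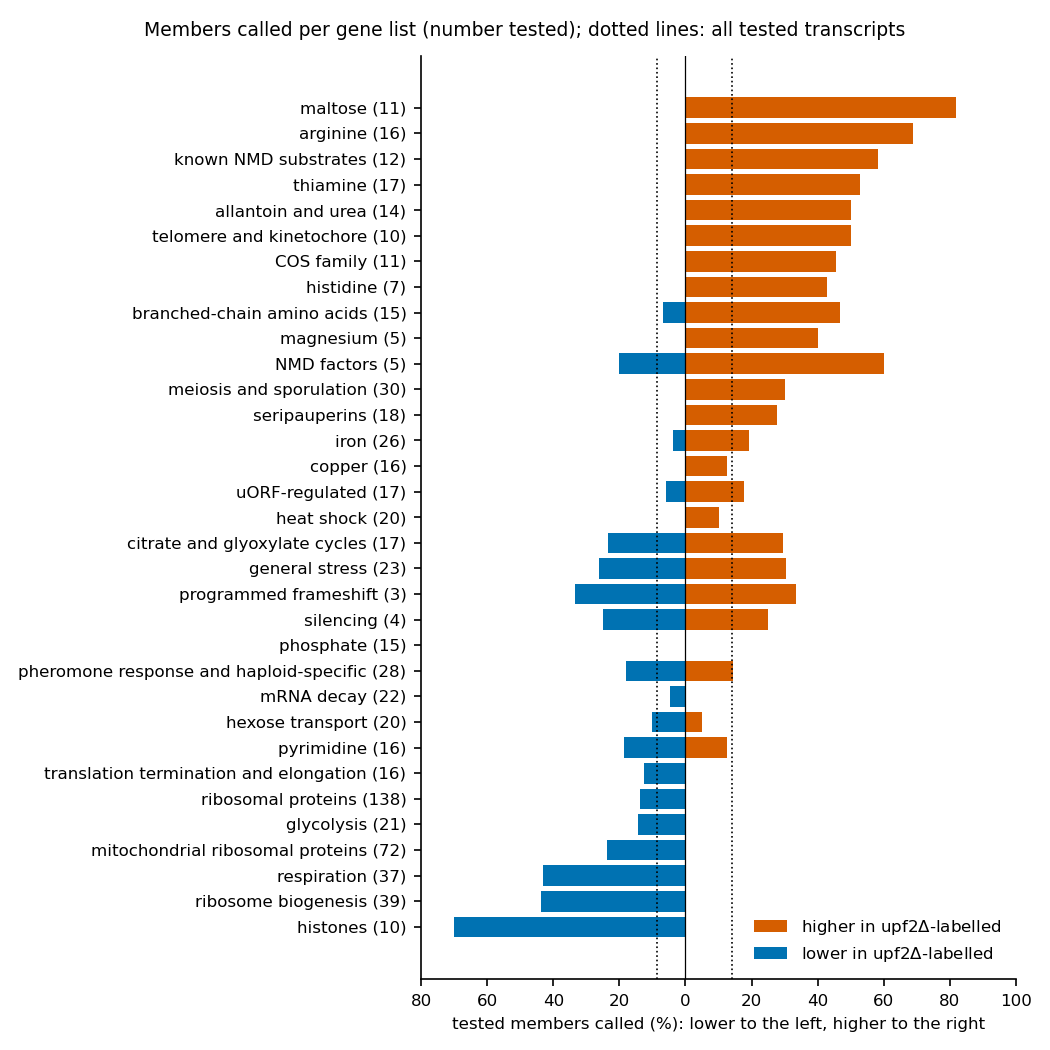
Share of the tested members of each gene list that were called higher (right) or lower (left) in the upf2Δ-labelled strain, with the number tested in parentheses; dotted lines mark the shares over all tested entries, 14.1% higher and 8.76% lower. Maltose and arginine genes reach farthest to the right and histones farthest to the left. Lists and members were chosen with earlier results of these data known.

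The citrate, general stress and hexose transport lists had members called in both directions, against 14.1% of all entries higher and 8.76% lower. In the citrate and glyoxylate cycles, 5 of 17 were higher (29.4%) and 4 lower (23.5%), MDH2 first among the latter. The higher ones included PCK1, of gluconeogenesis, at log2 0.48 ± 0.12, ICL1, isocitrate lyase, at 0.34 ± 0.06 and ACO1, aconitase, at 0.28 ± 0.08. Of 23 general stress genes, 7 were higher (30.4%), such as SOL4 (log2 0.54 ± 0.18, adjusted p = 0.043) and SPI1 (0.47 ± 0.13), and 6 lower (26.1%), such as HOR7 and YGP1 (-0.57 ± 0.16). The calls of SOL4, SPI1 and YGP1 were each lost in at least 4 of 14 alternatives. HXT7, a high-affinity glucose transporter with a near-identical copy in HXT6, fell from 229 ± 31.3 to 176.5 ± 15.7 CPM (log2 -0.47 ± 0.08, adjusted p = 0.0011) and in footprints (log2 -1.04 ± 0.17, adjusted p = 0.002). HXT4 fell by log2 0.41 ± 0.10, and HXT9 rose by 0.88 ± 0.28 from 1.58 ± 0.280 CPM in the third call among 20 hexose transporters (5% higher and 10% lower). The call of HXT9 was lost in 7 of 14 alternatives and that of ACO1 in 5. Of 20 heat shock genes 0 were lower and 2 higher (10%, below the background), the inducible Hsp70 genes SSA3 (log2 0.55 ± 0.06) and SSA4 (0.39 ± 0.08). In glycolysis 0 of 21 genes were higher and 3 lower (14.3%), HXK2 (-0.24 ± 0.08), GLK1 (-0.31 ± 0.10) and PFK1 (-0.19 ± 0.06). Each of the 3 lost its call in at least 10 of 14 alternatives.

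Few genes of translation and mRNA decay were called, where 14.1% of all entries were higher and 8.76% lower. Of 22 mRNA decay factors, 1 was lower, the decapping enzyme DCP2 (log2 -0.22 ± 0.06, adjusted p = 0.018, lost in 4 of 14 alternatives), and 0 higher. A list of 16 translation factors, mainly of termination and elongation, had 2 lower (12.5%). They were the release factor SUP35 (log2 -0.21 ± 0.05) and the initiation scaffold TIF4631 (-0.19 ± 0.05). Without Upf1-FLAG replicate 1 the lower members of this list numbered 11. Of 17 genes controlled by upstream reading frames, 3 were higher (17.6%, near the background) and 1, TIF4631, lower (5.88%). The higher ones were CPA1, the oxidative stress regulator YAP1 (log2 0.23 ± 0.05) and the kinase RCK1 (1.10 ± 0.33, from 1.51 ± 0.353 CPM). The calls of RCK1 and TIF4631 were each lost in 5 of 14 alternatives. Among 3 genes with a programmed frameshift, EST3 was higher and ABP140 lower (-0.14 ± 0.05, adjusted p = 0.041), a call lost in 9 of 14 alternatives. Of 4 silencing genes, SIR1 was higher (0.36 ± 0.08) and SIR2 lower (-0.27 ± 0.09, adjusted p = 0.045), the latter lost in 10 of 14 alternatives.

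A comparison that shares no library with this one, DE572AA-FLAG against WT, changed more transcripts, 3630 of 6739 (53.9%): 1769 higher (26.3%) and 1861 lower (27.6%). Without the mating-type genes, 836 of the 941 higher transcripts were also higher there, which is 88.8% of the upf2Δ list and 47.3% of the DE572AA list of 1766, and 13 were lower. Of the 580 lower transcripts 403 were also lower there, 69.5% of the one list and 21.7% of the other, and 35 were higher. The host strain HFY871 is on the reference side here and on the test side there. Single genes went opposite ways in the 2 comparisons, and the part of that strain in this was not tested. ARG1 was higher in the upf2Δ-labelled strain but lower in DE572AA-FLAG than in WT (log2 -0.58, adjusted p = 0.00015), and its WT level was the highest of the 4 at 205 CPM. FRE7 rose here and was lower in DE572AA-FLAG than in WT (log2 -1.52). GYP8, YRO2, HOR7 and HXT7 fell here and were higher in DE572AA-FLAG than in WT, by log2 0.75, 0.65, 0.63 and 1.64. Of the 37 respiratory genes, 14 were higher and 0 lower in DE572AA-FLAG against WT.

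The upf2Δ-labelled strain and DE572AA-FLAG were then compared with each other, which reuses libraries of both comparisons. Here 97 of 6739 entries (1.44%) differed, 23 higher (0.341%) and 74 lower (1.1%) in the upf2Δ-labelled strain. None of the 12 known NMD substrates was among them, which is near the 1.44% of all entries and does not show that their levels were equal. ADE2, CAN1 and TRP1 were not among the 97 either. NMD2, YHR078W, PTC7, GYP8 and the mating-type genes were, and so were 11 of 37 respiratory genes and 6 of 23 general stress genes, all lower in the upf2Δ-labelled strain. HSP12, a membrane heat shock protein and the stress gene with the largest such difference, was lower by 1.98 on the log2 scale (adjusted p = 1.8e-05, edgeR).

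Footprints, read at far lower depth (1931857 to 3020880 counts per library of 27 to 32 nt), gave few calls. Their fit also held WT libraries of 213689 to 714997 counts and DE572AA-FLAG libraries of 1294981 to 1626640 counts. Of 5086 entries tested, 74 differed in total 80S (1.45%), 55 higher (1.08%) and 19 lower (0.374%), the mating-type genes among them. Apart from those and the marker genes, 626 transcripts higher in RNA were tested there, and 503 of them (80.4%) had a positive log2 change, with a median of 0.27; 37 were called higher and 1, YHR078W, lower. Of 555 lower in RNA, 433 (78.0%) had a negative change, with a median of -0.12; 4 were called lower and 0 higher. The called rises included ADE2 (9.02 ± 1.72 to 22.5 ± 4.84 CPM, log2 1.30 ± 0.27, adjusted p = 0.0087), CAN1 (9.68 ± 2.12 to 27.7 ± 5.25 CPM, log2 1.51 ± 0.26, adjusted p = 0.0013) and DAL7 (log2 1.71 ± 0.38, adjusted p = 0.017). ARG1 rose by log2 0.93 ± 0.16, HIS4 by 0.57 ± 0.14 and NMD4 by 0.70 ± 0.18. Of these footprint calls, those of CAN1 and ARG1 were kept in all 8 alternatives, while NMD4 lost its call in 5, DAL7 and HIS4 in 4 and ADE2 in 3. The footprint falls of HXT7 and URA1 were each lost in 1, the fit of the 2 groups alone. MIN9 rose from 8.18 ± 2.76 to 34.4 ± 7.62 CPM in footprints (log2 2.08 ± 0.30), more than in RNA (0.49 ± 0.09), as did MAY24 (1.60 ± 0.28 against 0.86 ± 0.14), both picked after their values were seen; the difference between the readouts was not tested. CPA1 was the 1 known NMD substrate called of 10 tested, and 3 of the 11 maltose genes passed the count filter there.

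**Figure D5:**
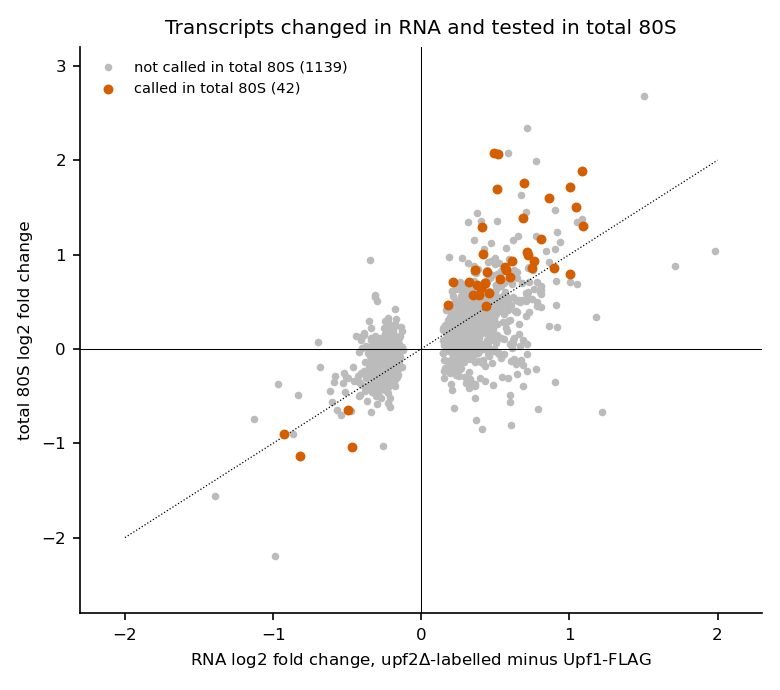
Log2 change in RNA (horizontal) against total 80S footprints (vertical), upf2Δ-labelled minus Upf1-FLAG, for transcripts changed in RNA, without mating-type and marker genes; orange points were also called in footprints and the dotted line marks equal change. Most orange points lie at the upper right, and 2 points, 1 of them YHR078W, lie outside the axes.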

How the data were processed

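RNA and total 80S footprint libraries of 4 yeast strains were used, 3 per group, grouped by their GEO labels. Expected counts per transcript were estimated by the authors and deposited; RSEM, Bowtie and cutadapt and the builds R64 and sacCer3 are named, without versions or roles, in the submitters' processing notes. The deposited FPKM values, scaled by the authors for length and depth, were used to compare levels between genes. RNA came from total lysate depleted of rRNA and was made into libraries with a strand-marking kit, per the labels' protocols. Mature and unspliced transcripts of a gene are separate entries, so RSEM's division of shared reads bears on both, and on near-identical copies. Of 6 tables, 3 were used.

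After rounding to integers, the expected counts were tested with edgeR 4.0.16 in R 4.3.3 (quasi-likelihood F-test, TMM factors, filterByExpr with a minimum count of 10, robust), with all 12 RNA libraries and 4 groups in one fit. P-values were adjusted by Benjamini-Hochberg over all tested entries and called under 0.05. Footprints of 27 to 32 nt were tested likewise. Alternatives included DESeq2 1.42.0, other scalings and filters, the compared groups alone, and each replicate left out. The fit was tested on simulated data with 100 changes of log2 1 and 100 of log2 0.5 in absolute size. It recovered 85% of the former and 63% of the latter, and 1.33% of its calls were false. Changes of log2 0.5 or less can therefore be missed, and an entry not called is not shown to be unchanged.

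Named by rule were NMD2, NMD factors, markers and mating-type genes; the 14 transcripts with the largest rise and the 14 with the largest fall among called, non-overlapping mature transcripts of at least 10 CPM in the higher group; 5 unspliced rises and 3 falls of at least 5 CPM; every known NMD substrate; and up to 4 members of each of 36 lists. Others are said to have been picked after their values were seen. Members and lists were chosen with earlier results of these data known. Of 6656 loci, 5966 matched the RefSeq gene table by locus tag.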

Additional observations from a re-analysis of the deposited data

How the results depend on the processing

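Of 177 named transcripts called in RNA, 128 kept their call in all 14 alternatives and 49 lost it in at least 1. The count of changed transcripts was 1539; with the 2 compared groups alone it was 946, of which 220 were lower, and with DESeq2 it was 1802. Lower calls numbered 393 with entries summed per locus and 333 with entries under a mean of 1 CPM removed, where 17 were at least 2-fold lower. Leaving out one replicate at a time gave 1127 to 1669 changed, 753 to 967 higher and 265 (without upf2Δ-labelled replicate 3) to 702 (without Upf1-FLAG replicate 1) lower, and 49 to 137 differing from DE572AA-FLAG. The rise in the unspliced share was 0.642 percentage points outside ribosomal protein genes. Within ribosomal protein genes it was 0.0869 points, with overlapping groups (p = 0.2, exact permutation test). PHO84, not called, ranged in log2 change from -0.72 without Upf1-FLAG replicate 2 to 2.21 without Upf1-FLAG replicate 1, a reversed sign; the cause was not tested beyond that library's level. Same-numbered samples did not deviate together (correlations -0.0025, 0.036 and -0.046), so the numbers give no pairing; with a replicate block 1378 were changed, 874 higher and 504 lower. Total 80S libraries held at most 3020880 counts each, and the bearing of this depth on the number of footprint calls was not tested.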

Other observations

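Genes near chromosome ends were called higher more often than others. Within 20 kb of the outermost annotated gene of a chromosome, 46.5% of 217 tested genes were higher and 2.3% lower, with a median log2 change of 0.56. From 20 to 50 kb the shares were 21.7% higher and 10.6% lower of 442, and farther inside 12.6% and 10% of 5149. The median level in Upf1-FLAG was 10.4 CPM in the outermost bin, against 47.9 and 61.6 CPM in the others. In DE572AA-FLAG against WT, 64.1% of the outermost genes were higher. Reads of repeated subtelomeric families can be divided between copies. The median log2 change of whole chromosomes ranged from -0.06 to 0.01 over 16 chromosomes.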
